A study of Arabidopsis thaliana with 3 samples.

Results

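Genes that encode histone-modifying enzymes were examined for BDH1 occupancy in Arabidopsis thaliana inflorescences. The set was a fixed list of 10 loci (3 H3K27 demethylases, 4 writers of active histone marks and 3 histone deacetylases) out of 27444 nuclear protein-coding genes. A peak was assigned to a gene when it overlapped the annotated gene extended by 500 bp on each side, and 15 of the 16653 peaks of BDH1-FLAG replicate 1 and 13 of the 16413 peaks of replicate 2 met that rule. BDH1 is a BCL-domain homolog protein that the title of the series ties to SWI/SNF complexes. ChIP-seq with an anti-FLAG antibody had been made from soil-grown, long-day plants of genotype bdh1-1 BDH1-FLAG, a mutant that carries the tagged protein, in 2 samples. The 1 sample labelled Wild type, immunoprecipitated with the same antibody and without a tag in its genotype label, was not analysed here, so peaks that untagged plants would also give could not be told apart. The promoter of the transgene, the number of lines behind the replicates and whether they came from separate plantings are not given in the sources used here.

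SWI/SNF complexes use ATP to move or evict nucleosomes, and in plants they are known for working against Polycomb silencing at developmental genes. The enzymes examined here act on the same balance. JmjC-domain demethylases of the REF6 type remove the repressive methyl groups of histone H3 lysine 27, Trithorax-type and SDG8-type methyltransferases add methyl groups at lysines 4 and 36 of histone H3 that mark active genes, and RPD3-type deacetylases remove acetyl groups and thereby lower activity. REF6 is also known to bring the SWI/SNF ATPase BRM to a part of its targets. The question put to the data was whether the genes that encode these enzymes carried BDH1-FLAG themselves, and where.

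Of the 10 genes, 9 carried a peak in replicate 1, in replicate 2 and in both. Under the same rule, a peak was found at 55.6% of all protein-coding genes in replicate 1, at 56.2% in replicate 2 and at 52.1% in both lists. Long genes offer more room for a peak, and the 10 genes were 2842 to 11182 bp long. Among the 7862 protein-coding genes of that length range, 67.7% had a peak in both lists. The exception was the H3K4 methyltransferase gene ATX1, which had none in either list. By role, 3 of 3 demethylase genes, 3 of 4 writer genes and 3 of 3 deacetylase genes had a peak in both lists. When the summit, the highest point of a peak, had to lie inside the extended gene, the count was again 9 of 10, against 48.6% of all protein-coding genes. The summit share for genes of the same length range is not given here. The 10 genes were picked by name, with earlier results of these data known. These counts were therefore not tested and are set beside the shares of all genes as a description.

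**Figure D1:**
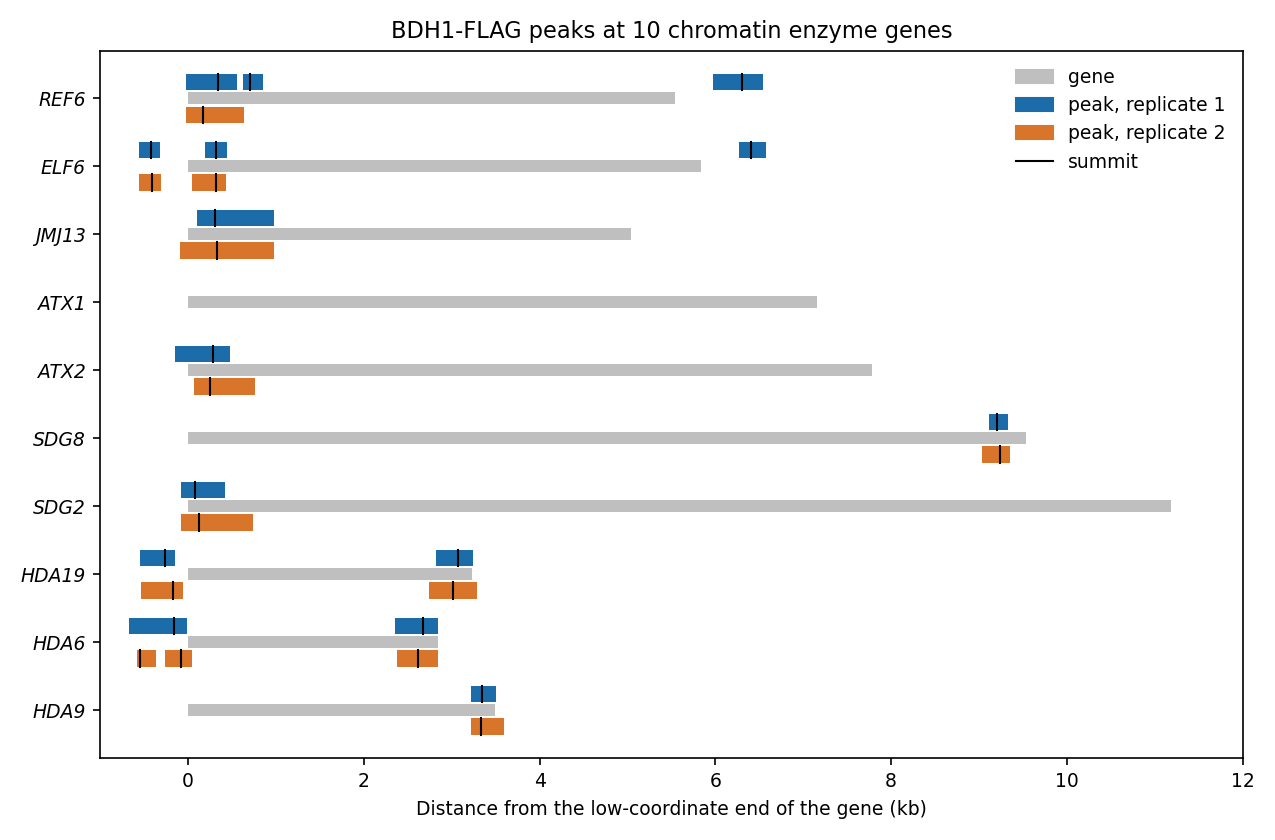
Peaks of BDH1-FLAG replicate 1 (blue, above each gene) and replicate 2 (orange, below) along the 10 genes, with distance from the low-coordinate end of the gene in kb on the horizontal axis and black ticks at the summits. All genes but ATX1 have peaks near an end in both lists, and no peak reaches 1 kb into any of the genes from its nearest end.

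The genes with peaks were alike in having a summit close inside an end. Each of the 9 genes with peaks had a summit 83 to 338 bp inside one of its ends, in each of the lists. At ELF6 this was not the highest peak, whose summits lay 426 and 404 bp outside the gene. The range was read from these same summits, and the share of all genes with a summit in it was not computed. The ends are named here by coordinate, low or high, because the gene table gives no strand and starts and ends of genes cannot be distinguished. The end was the low one at REF6, ELF6, JMJ13, ATX2 and SDG2 and the high one at SDG8, HDA19, HDA6 and HDA9, the same in both lists for every gene. Of the summits inside the extended genes, 9 of 13 in replicate 1 and 9 of 12 in replicate 2 lay between 0 and 400 bp inside the nearest end. Over all protein-coding genes, 53.9% of such summits in replicate 1 and 54.1% in replicate 2 lay in that stretch. The median signed distance, positive inside the gene, was 175.5 bp ± 19.1 (SD, n = 2), from 162 bp in the first and 189 bp in the second list. The medians over all protein-coding genes were 214 and 212 bp. No peak of either list had a base 1000 bp or more from both ends of any of the 10 genes, whereas 12.3% of the protein-coding genes of the same length range had such a peak in at least 1 list. A count of 0 of 10 is near that background.

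**Figure D2:**
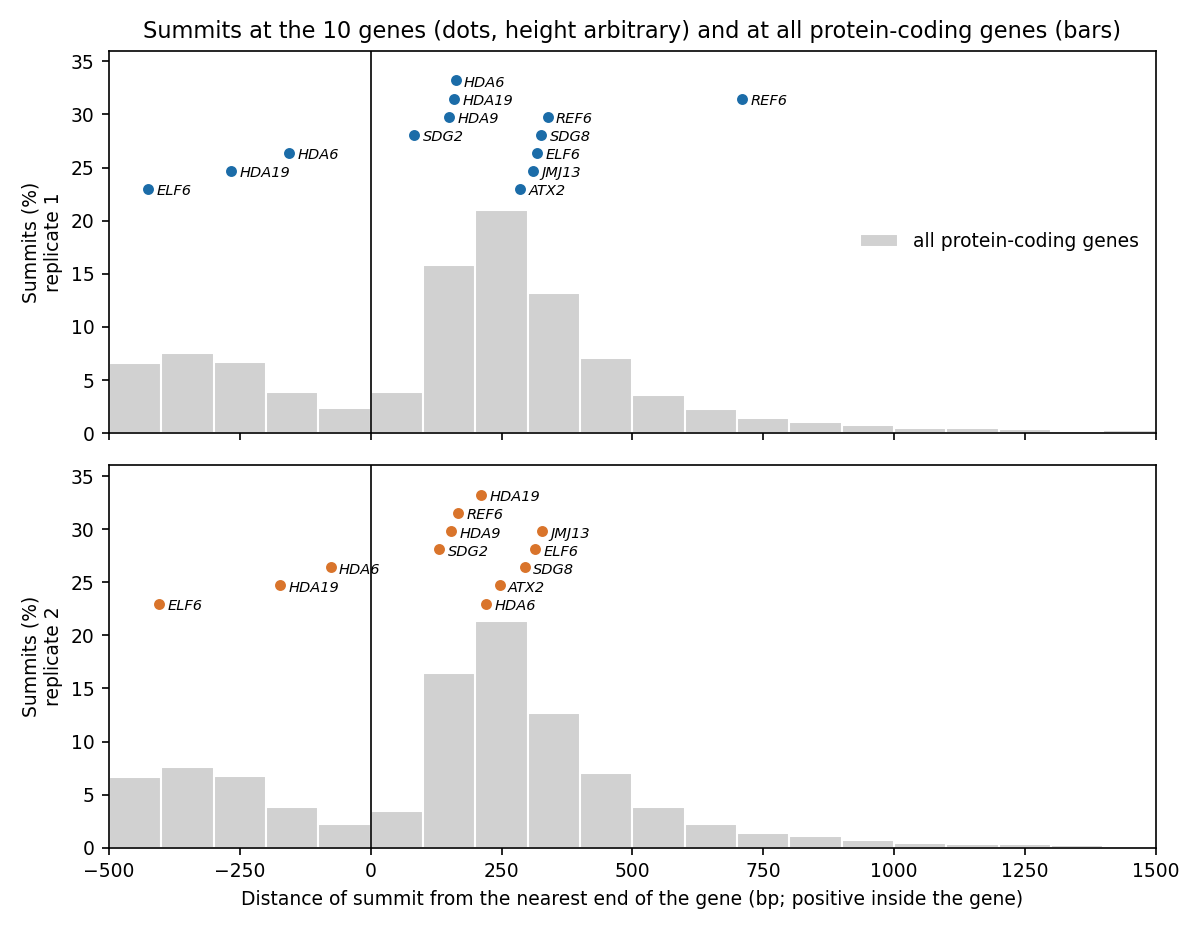
Signed distance from each summit to the nearest end of its gene in bp (positive inside the gene), for replicate 1 above and replicate 2 below, as dots for the 10 genes and as bars for the percentage of summits per 100 bp at all protein-coding genes. Most dots fall between 83 and 338 bp inside the gene, where the bars are highest, single dots of ELF6, HDA19 and HDA6 fall outside the gene in each list, and 1 dot of REF6 falls 709 bp inside it in replicate 1.

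Among the H3K27 demethylase genes, REF6 (AT3G48430) had its main peak at the low end. REF6, also named JMJ12, binds DNA through zinc fingers and promotes flowering. In replicate 1 the peak spanned positions 17935232 to 17935809 of chromosome 3 (build TAIR10, as are all positions given here), where the authors' fold enrichment was 2.60 and the −log10 q was 10.1. In replicate 2 it spanned 17935238 to 17935893, where these values were 2.55 and 10.1. The replicates gave nearly the same interval, while their summits stood 171 bp apart, the widest gap between the highest peaks of any of the 9 genes. In replicate 1 a second peak of 229 bp followed, with its summit 709 bp inside the gene and a fold enrichment of 1.85, and it overlapped the replicate 2 peak by 15 bp. One more peak of replicate 1 began 432 bp past the high end and lay over the neighbour AT3G48440. Its counterpart in replicate 2 began 554 bp past that end and was therefore just outside the 500 bp limit, so this peak entered by the limit in one list only.

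ELF6 (AT5G04240), the JMJ11 demethylase that is known as a repressor of the photoperiod flowering pathway, had low peaks on both sides of its low end. Outside the gene, an interval from 1168597 to 1168833 on chromosome 5 in replicate 1 and from 1168594 to 1168842 in replicate 2 had summits 426 and 404 bp from the end. Its fold enrichment was 2.29 and 2.04. Inside the gene, a peak at 1169346 to 1169591 and at 1169202 to 1169581 had summits 318 and 314 bp from the end, 4 bp apart between the lists. Its fold enrichment was 2.06 and 2.02, under the median of each list (2.25 and 2.23). The inner peak also overlapped AT5G04238, a small protein-coding gene that lies within ELF6 in the table. A further peak of replicate 1 lay 433 bp past the high end, with a fold enrichment of 2.21, and no peak of replicate 2 overlapped it.

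JMJ13 (AT5G46910), a demethylase that is known to act on flowering time, carried 1 peak in each list and the widest of the set. It measured 879 bp in replicate 1, at positions 19046438 to 19047316 of chromosome 5, and 1073 bp in replicate 2, at 19046244 to 19047316. Both ended on the same base, and their summits, 310 and 328 bp inside the low end, lay 18 bp apart. Fold enrichment was 2.98 and 2.70, and −log10 q was 12.5 and 9.36. Both widths exceeded the upper quartile of their list, which was 683 bp in replicate 1 and 688 bp in replicate 2. The long non-coding RNA gene AT5G06885 lay under this peak, so the signal was shared between both annotations.

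The writer genes differed most among themselves. ATX1 (AT2G31650) and ATX2 (AT1G05830) are close paralogs of the Trithorax type that methylate H3K4, and only the second had a peak. At ATX1 the nearest peak lay 1951 bp past the high end in replicate 1 and 1829 bp past it in replicate 2, over the next protein-coding gene AT2G31660, and in both lists it was lower than the median peak. No peak of either list thus came within the extended gene, nor within 1000 bp of it. A missing peak says only that no signal passed the authors' threshold, and the read depth that would set a detection limit is not known. At ATX2 a single peak spanned positions 1753983 to 1754608 of chromosome 1 in replicate 1 and 1754204 to 1754886 in replicate 2, with summits 285 and 246 bp inside the low end. Its fold enrichment was 2.88 and 2.68, and its −log10 q was 11.7 and 9.47. In replicate 1 the interval reached 147 bp out of ATX2 and into the neighbour AT1G05820 (SPPL5), whose end lies 93 bp away, whereas in replicate 2 it stayed within ATX2.

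SDG2 (AT4G15180), also named ATXR3 and known as the main enzyme for H3K4 trimethylation in the plant, is the longest of the 10 genes with 11182 bp. Its single peak spanned positions 8651330 to 8651826 of chromosome 4 in replicate 1 and 8651321 to 8652149 in replicate 2. The summits lay 83 and 131 bp inside the low end, the closest to an end among the highest peaks of the 9 genes in each list. Fold enrichment was 2.97 and 2.82, and −log10 q was 12.6 and 11.2. The peak covered 4.08% and 6.81% of the extended gene and overlapped no other annotated gene.

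SDG8 (AT1G77300), listed as EFS and known as the main H3K36 methyltransferase and an activator of FLC, had the smallest coverage of the genes with peaks. A peak of 224 bp between 29049030 and 29049253 on chromosome 1 in replicate 1, and of 316 bp at 29048961 to 29049276 in replicate 2, was the only one, with summits 326 and 294 bp inside the high end. Its fold enrichment was 2.10 in replicate 1 and 2.07 in replicate 2, again under the median of each list. The −log10 q was 4.92 and 4.85. The position was thus repeated to within 32 bp although the peak was low in both lists. It covered 2.13% and 3.00% of the extended gene.

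The deacetylase genes were the shortest of the set, at 2842 to 3491 bp, and had the highest single peak. HDA19 (AT4G38130), listed as HD1, is a widely expressed deacetylase that works with co-repressors such as TOPLESS. Its peak at the high end spanned positions 17899095 to 17899524 of chromosome 4 in replicate 1 and ranked 817 there by its fold enrichment of 3.33 (−log10 q 16.7). In replicate 2 it spanned 17899017 to 17899564 and ranked 1578 by its fold enrichment of 2.94 (−log10 q 11.8). The summits were 159 and 211 bp inside the gene. Beyond the low end, a lower peak with a fold enrichment of 2.05 and 2.29 lay wholly outside HDA19 in both lists and over AT4G38120, whose end is 22 bp away. It was counted for HDA19 only through the extension.

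HDA6 (AT5G63110), a deacetylase known for silencing of transposons and ribosomal RNA genes, had a similar layout. The peak at its high end spanned positions 25317866 to 25318346 of chromosome 5 in replicate 1 and 25317884 to 25318354 in replicate 2. Its fold enrichment was 2.54 and 2.38, and its summits lay 162 and 220 bp inside the gene. At the low end, replicate 1 had 1 peak of 655 bp with a fold enrichment of 1.96, and replicate 2 had 2 peaks of 215 and 309 bp in its place, whose fold enrichments were 1.89 and 2.11. All of these overlapped AT5G63100, which itself overlaps HDA6 by 28 bp. The replicate 1 peak ended 14 bp outside HDA6, the outer replicate 2 peak 369 bp outside it, and the inner one entered HDA6 by 49 bp. The outer of the replicate 2 summits was 543 bp from HDA6, just past the 500 bp limit for summits.

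HDA9 (AT3G44680), a deacetylase that acts with POWERDRESS and is known to delay flowering, had 1 peak in each list at its high end. It spanned positions 16229735 to 16230024 of chromosome 3 in replicate 1 and 16229735 to 16230119 in replicate 2, and began on the same base in both. The summits lay 149 and 153 bp inside the gene, 4 bp apart. The position was thus the most closely repeated among the highest peaks, but the height was not. Fold enrichment was 2.78 at rank 2960 in replicate 1 and 2.38 at rank 6302 in replicate 2. HDA10 and HDA17, shorter genes that resemble HDA9, had no peak in either list. How reads that match several places were treated is not given in the sources used here, and its part in the values at these genes was not tested.

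Peak heights were next put in order within each list, because fold enrichments of separately called lists are not on a common scale. For each gene the highest peak was given as the percentage of peaks of its list with a lower fold enrichment. HDA19 led with 95.1% in replicate 1 and 90.4% in replicate 2, a mean of 92.7% ± 3.33 (SD, n = 2), and did not overlap the gene below it. SDG2 (87.2% ± 1.36, SD, n = 2), JMJ13 (84.9% ± 5.19) and ATX2 (83.0% ± 3.64) followed, and their values overlapped from one to the next. REF6 (73.9% ± 0.388, SD, n = 2), HDA9 (71.9% ± 14.6) and HDA6 (66.1% ± 5.98) came next, again with overlapping neighbours. ELF6 (42.7% ± 15.1, SD, n = 2) and SDG8 (35.5% ± 1.26) came last and overlapped each other. These 4 sets were drawn from these same values, at the places where neighbours in the order did not overlap. That they did not overlap within each list is therefore no separate result. Between lists, the 82.2% of HDA9 in replicate 1 fell within the ranges of ATX2 and JMJ13. Each of the 3 roles was therefore spread over the order rather than gathered at one place in it.

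**Figure D3:**
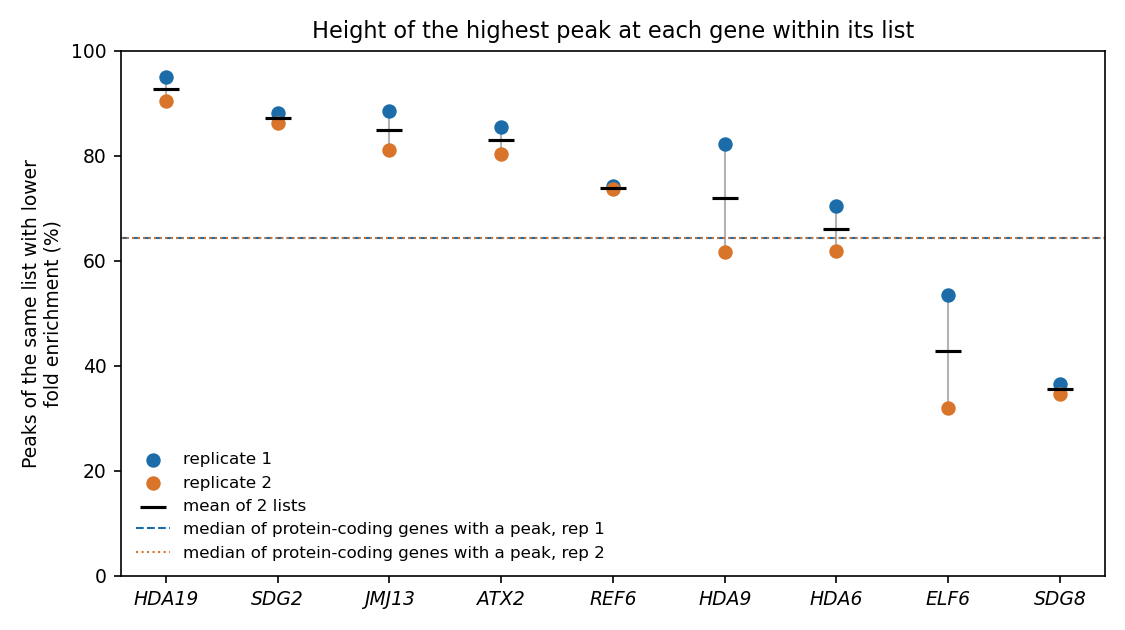
Percentage of peaks in the same list with a lower fold enrichment than the highest peak of each gene, for replicate 1 (blue) and replicate 2 (orange), with black bars at the mean of the 2 lists and ATX1 left out for want of a peak. HDA19 is highest in both lists, ELF6 and SDG8 lie below the dashed and dotted medians of all protein-coding genes with a peak (64.3% and 64.4%), and HDA9 and ELF6 have the widest gap between lists.

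Over the 9 genes the median of this percentage was 82.2% in replicate 1 and 73.6% in replicate 2. Over all protein-coding genes with a peak in the list it was 64.3% and 64.4%, and over those of the same length range 64.3% and 63.6%. Whether the medians of the 9 genes differ from these was not tested. With peaks restricted to −log10 q values of 5 or more, 7 of the 10 genes kept a peak in both lists, and ELF6 and SDG8 were lost in addition to ATX1. The share of all protein-coding genes at that threshold was 36.9%, and that of the length range 47.5%. With values of 10 or more, REF6, SDG2 and HDA19 were left, which is 3 of 10 and 1 gene from each role, against 11.8% of all protein-coding genes and 14.1% of the length range. REF6 passed this threshold narrowly in both lists, and HDA9 (10.2 and 6.50), JMJ13 and ATX2 passed it in replicate 1 only.

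The lists repeated each other at these genes. Of the peaks assigned to the 10 genes, 14 of 15 in replicate 1 overlapped a peak of replicate 2, and 13 of 13 in replicate 2 overlapped a peak of replicate 1. Over the whole lists these shares were 84.6% and 86.7%. The median distance from a summit to the nearest summit of the other list was 48 bp seen from either replicate, against 90 and 88 bp over all peaks. For the highest peak of each gene it ranged from 4 bp at HDA9 to 171 bp at REF6. The whole lists also hold peaks away from genes and peaks of every height. The same values over peaks assigned to protein-coding genes, or over peaks of like height, were not computed.

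Peaks covered a small part of each extended gene. The median share of the extended gene under peaks was 7.18% in replicate 1 and 8.45% in replicate 2 over the 10 genes, close to the 8.06% and 8.43% of protein-coding genes of the same length range. It was highest at HDA6, with 25.2% and 23.7%, and at HDA19, with 18.5% and 23.5%. These shares count the 500 bp added on each side, which weigh more at short genes such as these. They also count low-end peaks that lay mostly or wholly outside the gene. The genes were not ranked by coverage of the gene alone. HDA6 and HDA19 were also the only genes with a peak within 500 bp of both ends in both lists, 2 of 10 against 12.6% of the length range. At 7 of 10 genes, exactly 1 end had a peak in both lists, against 53.1% of the length range. Among these, REF6 and ELF6 also had a peak at the other end, in replicate 1 only. The share over the length range counts such genes as well. At HDA19 and HDA6 alike the low-end peak overlapped the adjoining gene.

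To see whether other genes of the same pathways were alike, 71 related genes were taken by name in 5 groups. Of these, 54 (76.1%) had a peak in both lists, 2 had one in replicate 1 only, 2 in replicate 2 only and 13 in neither, beside the 52.1% of all protein-coding genes in both lists. Of the 48 related genes within the length range of the 10 genes, 35 (72.9%) were occupied in both lists, beside 67.7% of all protein-coding genes of that range. Of the 23 shorter related genes, 19 (82.6%) were occupied in both lists. The share over all protein-coding genes as short as these was not computed. Among 22 further demethylase genes, 18 had a peak in both lists. The best mean rank over both lists was held by FLD (AT3G10390), an LSD1-type demethylase that represses FLC. It had 3 peaks in replicate 1 and 2 in replicate 2, and the highest of each list had a fold enrichment of 2.90 and 3.01. The highest one overlapped AT3G10380 in replicate 2 and no other gene in replicate 1. Whether both lie at the same place was not checked. JMJ15, IBM1 and JMJ31 had no peak in either list. Among 12 other writer and COMPASS genes, 11 had a peak in both lists, with ATX4 (AT4G27910) best by mean rank at a fold enrichment of 3.12 and 2.74, and ASHR3 had none. The paralogs ATX3 and ATX5 had a peak in both lists as well.

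Acetyltransferase genes, whose products place the marks that deacetylases remove, were occupied in both lists at 8 of 12 loci (66.7%). This is beside 52.1% of all protein-coding genes and near the 67.7% of those of 2842 to 11182 bp. HAC12 (AT1G16710), of the p300/CBP type, had the best mean rank with a fold enrichment of 2.86 and 3.23, but its peak also overlapped AT1G16720 and AT1G05253. HAC2, HAC4 and HAF2 had no peak in either list, and HAG1 (GCN5) had one in replicate 2 alone. Of 15 other deacetylase genes, 8 (53.3%) had a peak in both lists, which is near the 52.1% of all protein-coding genes. HDT4 (AT2G27840), of the plant-specific HD2 type, had the best mean rank over both lists, with a fold enrichment of 3.71 and 3.04, and its peak also overlapped AT2G27830. HDA5, HDA7, HDA10, HDA14, HDA17 and HDA18 had no peak in either list. HDA8 and HDA15 had one in both lists and HDA2 had one in replicate 1 alone.

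Genes for partners of the deacetylases included the gene with the best mean rank of the 5 groups. Of 10 such genes, 9 had a peak in both lists, the same 9 when −log10 q had to reach 5, and 5 when it had to reach 10. Over all protein-coding genes these shares were 52.1%, 36.9% and 11.8%. Over those of 2842 to 11182 bp they were 67.7%, 47.5% and 14.1%, and most of these cofactor genes are long. SNL2 (AT5G15020), a SIN3-type scaffold for HDA19, had the best mean rank over both lists, with a fold enrichment of 4.00 at rank 155 in replicate 1 and 3.61 at rank 187 in replicate 2, but its peak also overlapped 6 other annotated genes. MSI1, a histone-binding protein found in several chromatin complexes, reached a fold enrichment of 3.82 and 3.57 with a peak that also overlapped AT5G58220 in both lists. PWR (POWERDRESS), the partner of HDA9, had 2 peaks in each list, and the highest of each list reached 2.98 and 3.74. The highest one overlapped AT3G52240 in replicate 1 and no other gene in replicate 2. Whether both lie at the same place was not checked. The SIN3-type genes themselves ranged widely, down to SNL1 with 1.98 and 2.15. HDC1 had a peak in replicate 2 alone. These groups were formed by name, with earlier results of these data known, and differences between them and the 10 genes were not tested.

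**Figure D4:**
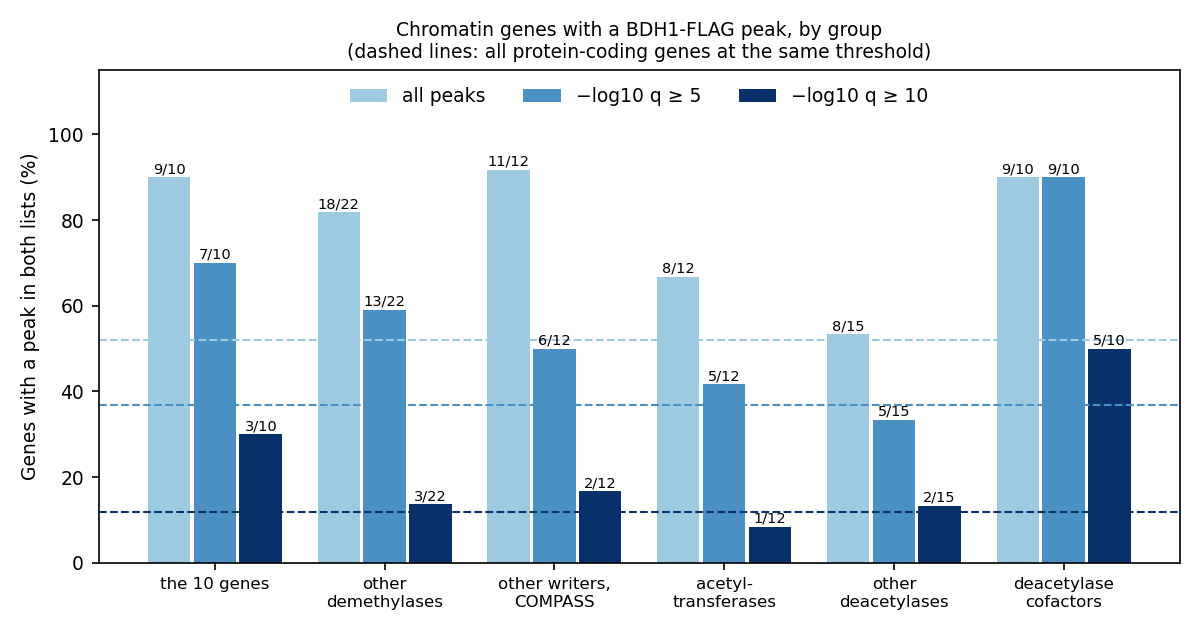
Percentage of genes with a peak in both lists at all deposited peaks (light), at −log10 q values of 5 or more (middle) and 10 or more (dark), for the 10 genes and for 5 groups of related genes, with gene counts above the bars. Dashed lines give the share of all protein-coding genes at each threshold (52.1%, 36.9% and 11.8%), and the deacetylase cofactors are the group with the highest bar at the strictest threshold, 5 of 10.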

How the data were processed

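ChIP-seq peak lists of 2 BDH1-FLAG samples were used. Per the submitters' processing notes, the tools were Bowtie2 2.5.2, SAMtools, bedtools 2.31.1 and MACS2 2.2.9.1 and the build TAIR10; settings and the control library are not given in the sources used here. The authors deposited 1 narrowPeak list per sample, so replicates were not pooled. Each line gives an interval, a summit, a fold enrichment (a linear ratio), −log10 p and −log10 q values and a score deposited by the authors; the score and p were not used. The read depth is unknown, so no counting error could be given.

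Genes came from a RefSeq table of TAIR10.1, where all 81 listed loci were found by their locus. Some carry another symbol there than the name used here, such as EFS for SDG8 and HD1 for HDA19. Others carry the locus alone. The match of the builds was checked: 41.2% and 42.3% of summits lay within 250 bp of a protein-coding gene end, against 21.9% to 23.5% after shifts of 2000, 5000 or 10000 bp. The table gives no strand and no sequence, so distances to gene starts, promoter motifs and printed sequences, planned where possible, were not analysed here.

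Overlap meant 1 bp or more, with positions 1-based. All values were computed with Python 3.11.15, numpy 2.4.6 and pandas 2.3.3, and the overlap routines were tested on simulated peaks. All 10 genes are named, with every gene that shares a peak with them; of the related genes, the best of each group by mean rank and those without peaks are named by rule, and others (ATX3, ATX5, HAG1, HDA2, HDA8, HDA15, MSI1, PWR, SNL1, HDC1) after their values were seen. The genes and lists were chosen with earlier results of these data known. Alternatives were other extensions (0 and 1000 bp), stricter −log10 q, an overlap of 100 bp, another ranking and either list alone. No significance test was run, since the design has 1 group of 2 lists.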

Additional observations from a re-analysis of the deposited data

How the results depend on the processing

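The count of 9 genes with a peak in both lists, and of 9 with a summit, was the same with no extension, with 1000 bp and with either list alone. With an overlap of 100 bp the peak count was also 9, and so it was when the lists had to overlap each other. Counting only peaks on the gene itself that met no other protein-coding gene, an alternative chosen after seeing the data, left 7, without ELF6 and ATX2. When −log10 q had to reach 10, both counts fell to 3, the related genes fell from 54 to 13 and the median coverage fell from 7.82% to 2.63%, as fewer peaks were left. With either list alone, the related genes numbered 56, the median percentile ranged from 73.6% to 82.2%, the coverage from 7.18% to 8.45% and the median signed distance from 162 to 189 bp. The median summit distance of 48 bp became 39 bp for the highest peaks and 55 bp when −log10 q had to reach 5. Distances to gene starts were not run for want of strand. No paired analysis was possible because the lists form 1 group. Without the read depth, a gene without BDH1-FLAG cannot be told from one whose signal stayed below the threshold. Without the wild-type values, peaks that untagged plants would also give cannot be told apart.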
